A study of Mus musculus with 4 samples.

Results

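The comparison described here sets 1 library labelled embryoid body (EB) against 2 libraries of undifferentiated mouse embryonic stem (ES) cells, and follows the protein-coding genes that reached 1 FPKM in any of these 3 libraries. FPKM is the number of sequenced fragments scaled to transcript length and to the size of the library. It is a share of the library, so a comparison between libraries also depends on what else each of them holds. The rule left 11878 genes of the 21618 protein-coding genes and the 47633 genes of all types in the deposited table. Of the 11878 genes, 376 reached 1 FPKM in the EB library alone and 377 in ES cells alone, so these had to differ to some degree. All libraries came from ES cells of strain 129S2/SvPas, and the series has 4 of them. The ES cells were kept on C57/BL6 embryonic fibroblasts that had been growth-arrested with mitomycin C, in serum with leukaemia inhibitory factor (LIF). The EB sample was induced from such cells by 5 days without LIF. The labels do not say whether it was kept apart from the fibroblasts, nor whether the ES libraries came from separate cultures, and the EB sample has no replicate.

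ES cells are pluripotent, and LIF holds them in that state through the transcription factor STAT3. Once LIF is withdrawn and the cells are left to aggregate into embryoid bodies, they usually lose naive pluripotency factors and begin to express regulators of the primitive streak and the germ layers. An embryoid body also remodels its matrix and its actin cytoskeleton, through secreted proteases, integrins and the contractile proteins that smooth muscle and fibroblasts share.

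The EB library held far more mRNA for several matrix metalloproteinases, for osteopontin and for the NODAL inhibitors Lefty1 and Lefty2 than either ES library. It held far less for smooth muscle actin (Acta2) and transgelin (Tagln). At least 2-fold lower, some of them only just, were 4 other actomyosin genes of 25 and 6 of 20 targets of the YAP-TEAD factors. Among the annexins Anxa1, Anxa2 and Anxa3 were also at least 2-fold lower. Pluripotency factors stayed near their ES level. In all, 133 of the 11878 genes (1.12%) lay at least 2-fold above both ES libraries and 88 (0.741%) at least 2-fold below both, on the log2(FPKM + 1) scale, on which all differences below are given. Among the 11125 genes at 1 FPKM or more on both sides, 71 were higher (0.638%) and 63 lower (0.566%). The remaining 62 higher genes were those that passed through the EB library alone, and 25 of the lower genes passed through ES cells alone.

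These counts follow a rule of size and carry no test, because the EB sample is a lone library. A limma model was also fitted, with the EB library assumed to vary as the ES pair does, on 1 residual degree of freedom. Over all 14187 genes of every type limma called 0 genes (0%), the smallest adjusted p being 0.0675, with 4065 genes at unadjusted p under 0.05. Over the protein-coding genes alone limma called 151 genes higher (1.27%) and 96 lower (0.808%). The latter called 131 of the 133 genes that were higher by size and each of the 88 that were lower. Adjusted p-values below name which of these limma fits they come from, and measure only the spread between the ES samples, which may be technical.

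The ES libraries were close to each other. Across the 11878 genes, which are not independent replicates, their log2 values had a Pearson correlation of 0.995, against 0.978 and 0.975 for the EB library with ES 1 and ES 2. The median absolute difference was 0.07 between the ES libraries and 0.19 between the EB library and the ES mean. There were 54 genes at least 2-fold apart within the ES pair (0.455%), 41 of them higher in ES 1. The EB library lay above both ES libraries for 37.1% of all genes and below both for 49.2%. The median difference over all genes was -0.04, and 97.7% of genes lay within 2-fold of the ES mean. The sequenced depth implied by the lowest values was 31.5 M, 26.4 M and 26.4 M fragments for ES 1, ES 2 and EB. At that depth 3 fragments in a gene of 1 kb give 0.095, 0.113 and 0.113 FPKM, which allows for counting error alone. In bulk RNA a lower level can mean fewer cells of a type or less RNA per cell, and these cannot be told apart.

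**Figure D1:**
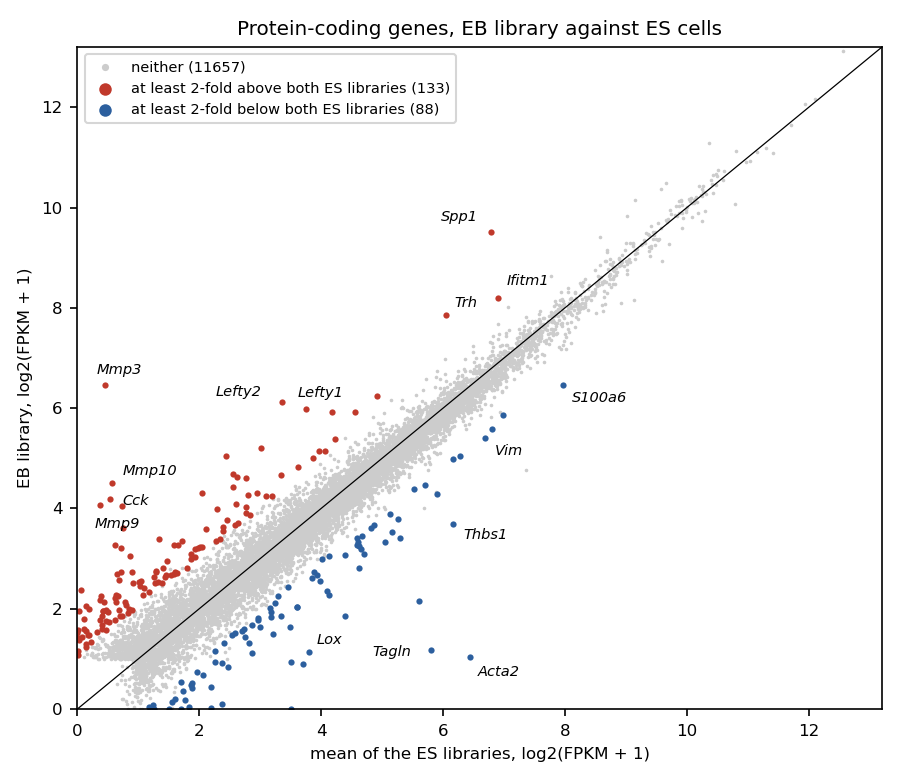
Each point is a protein-coding gene, with the mean of the 2 ES libraries on the x axis and the EB library on the y axis, both as log2(FPKM + 1); the line marks equal values. Red points are the 133 genes at least 2-fold above both ES libraries and blue points the 88 at least 2-fold below both, with Mmp3 and Acta2 farthest from the line.

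Matrix metalloproteinases are secreted or membrane-bound enzymes that cut collagen and other matrix proteins, and TIMPs are their inhibitors. Mmp3 (stromelysin-1) was at 0.319 FPKM in ES 1, 0.419 in ES 2 and 87.4 in the EB library. No other gene had so large a difference, 6.01 (SE 0.09), with limma adjusted p = 0.0704 over all gene types and 0.00244 over protein-coding genes. Mmp10 (stromelysin-2), its closest relative, was at 0.572, 0.394 and 21.7 FPKM, and the division of reads between these similar genes is uncertain. Mmp9 (gelatinase B) was at 0.331, 0.272 and 15.8 FPKM, and the collagenase gene Mmp13 at 0.579, 0.726 and 8.21 FPKM. In each case the ES libraries lay together under 1 FPKM and the EB library stood far above them. The macrophage elastase gene Mmp12 was at 0.0209, 0.00824 and 2.89 FPKM, where the ES 2 value is under the level of 3 fragments, and Mmp19 was at 0.139, 0.143 and 3.01 FPKM.

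The enzymes already abundant in ES cells did not share this difference. Mmp14, which sits in the cell membrane, was at 25.2, 27.2 and 20.1 FPKM, Mmp11 at 15.4, 15.8 and 10.2, and Mmp2 (gelatinase A) at 6.52, 6.56 and 10.4. None of these reached 2-fold. Among the inhibitors, Timp1 was at 14.4, 14.2 and 20.2 FPKM and Timp3 at 7.23, 7.13 and 5.49. Plat, which encodes tissue plasminogen activator, was at 0.449, 0.665 and 3.83 FPKM. In the list of metalloproteinases, TIMPs and plasminogen activator genes, 7 of 18 members were higher and 1 was lower. Over all genes 1.12% were higher and 0.741% lower. The median difference of the list was 0.53 against -0.04 over all genes. All 7 higher members (Mmp3, Mmp9, Mmp10, Mmp12, Mmp13, Mmp19 and Plat) passed the filter only through the EB library, so the count describes them and tests nothing.

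**Figure D2:**
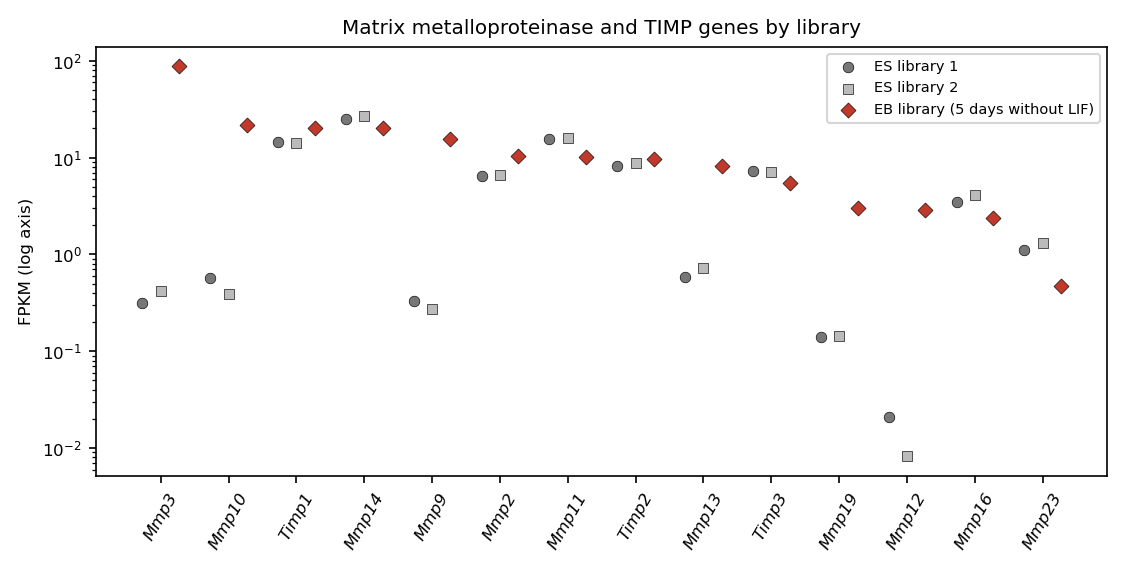
FPKM (log axis) of the matrix metalloproteinase and TIMP genes at 1 FPKM or more, in order of their EB level, in ES library 1 (circles), ES library 2 (squares) and the EB library (diamonds). Mmp3, Mmp10, Mmp9, Mmp13, Mmp19 and Mmp12 stand far above both ES libraries, whereas Mmp14, Mmp11, Mmp2 and the TIMP genes lie near them.

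Some of the higher genes lie near each other in the genome. Mmp13, Mmp12, Mmp3 and Mmp10 lie in this order on the plus strand of chromosome 9 in mm10, from 7272514 to 7510240. They are among 9 metalloproteinase genes of this cluster that had values. Mmp1b, on the minus strand, comes between Mmp12 and Mmp3 in order. The others of these 9 were near or at 0, with Mmp1b at 0.20 FPKM in the EB library and 0 in ES cells, and Mmp8 at 0.0158 and 0. Mmp27, Mmp20 and Mmp7 were listed at 0 in all 3 libraries. Mmp1b overlaps Mmp12 on the opposite strand, and since the use of strand in counting is not stated its reads cannot be told from those of Mmp12. Mmp9 lies elsewhere, on chromosome 2. The promoters of the 4 higher cluster genes are shown because all of them hold the same short motif close to the start. They run from 250 bases before to 50 bases after a transcription start of RefSeq on GRCm38.p6, all on the plus strand, and the capitals mark a match to the AP-1 motif (TGACTCA or TGAGTCA, searched on both strands). For Mmp12 the table has 2 starts, and the one with a match is printed. The windows are chr9:7445572-7445871 (Mmp3), chr9:7502092-7502391 (Mmp10), chr9:7272264-7272563 (Mmp13) and chr9:7347124-7347423 (Mmp12).
Mmp3: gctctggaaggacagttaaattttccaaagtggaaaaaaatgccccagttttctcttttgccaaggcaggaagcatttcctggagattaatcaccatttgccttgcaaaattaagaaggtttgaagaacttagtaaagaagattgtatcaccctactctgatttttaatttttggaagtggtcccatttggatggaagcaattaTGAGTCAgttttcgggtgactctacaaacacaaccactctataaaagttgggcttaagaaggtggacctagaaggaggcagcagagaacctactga
Mmp10: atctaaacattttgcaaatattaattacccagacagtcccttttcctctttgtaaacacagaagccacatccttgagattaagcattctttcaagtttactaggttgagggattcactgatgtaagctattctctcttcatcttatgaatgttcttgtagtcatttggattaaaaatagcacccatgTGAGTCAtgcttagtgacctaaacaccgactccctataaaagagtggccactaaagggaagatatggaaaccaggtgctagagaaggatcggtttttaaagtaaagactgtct
Mmp13: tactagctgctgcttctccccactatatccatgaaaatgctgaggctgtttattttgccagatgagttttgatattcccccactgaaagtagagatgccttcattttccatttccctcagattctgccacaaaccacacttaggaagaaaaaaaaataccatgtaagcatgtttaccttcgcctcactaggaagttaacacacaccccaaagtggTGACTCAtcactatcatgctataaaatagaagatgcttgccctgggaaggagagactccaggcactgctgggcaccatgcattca
Mmp12: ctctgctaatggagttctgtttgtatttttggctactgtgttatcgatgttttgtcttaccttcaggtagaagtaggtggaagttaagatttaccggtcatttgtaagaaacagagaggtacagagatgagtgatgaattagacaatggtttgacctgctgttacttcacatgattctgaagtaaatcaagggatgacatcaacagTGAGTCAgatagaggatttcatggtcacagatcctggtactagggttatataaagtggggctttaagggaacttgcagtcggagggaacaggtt

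The match begins 46 bases before the start in Mmp3, 63 in Mmp10, 35 in Mmp13 and 44 in Mmp12. AP-1 is the dimer of FOS and JUN proteins that binds this motif. It is held by 5.2% of all 32851 promoters. It was found in 11 of the 92 higher genes with an entry (12%) and 6 of the 62 lower genes with an entry (9.68%), against 4.22% of the 9345 genes of the comparison with an entry. The 4 cluster genes are among the 11. A match describes the letters and is not evidence of binding. Fos itself was lower in the EB library, at 17.1, 15.8 and 7.31 FPKM, as was Fosb at 5.71, 5.29 and 1.95. Both were chosen after their values were seen. Other AP-1 genes lay near ES cells, with Junb at 16.45, 14.92 and 15.44 FPKM and Fosl1 at 1.85, 1.43 and 1.91. The part of AP-1 in the differences was not tested.

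Among genes of the NODAL pathway only the inhibitors Lefty1 and Lefty2 passed 2-fold. NODAL is a TGF-beta family ligand that signals through activin receptors and SMAD2 and SMAD3, and LEFTY proteins are its secreted inhibitors and also its targets. Lefty1 was at 12.7 and 12.3 FPKM in ES cells and 62.1 in the EB library, and Lefty2 at 9.70, 8.79 and 68.7. Their differences were 2.23 (SE 0.05) and 2.77 (SE 0.09), with limma adjusted p = 0.10 and 0.116 over all gene types and 0.00505 for both over protein-coding genes. Lefty2 (180893108 to 180899103) and Lefty1 (180935022 to 180938400) are similar neighbouring genes on the plus strand of chromosome 1, so the split of reads between them is uncertain. The remaining pathway genes lay within 2-fold of ES cells. Nodal was at 8.08, 8.50 and 13.4 FPKM, its coreceptor gene Tdgf1 at 394, 413 and 269, and the inhibitory Smad7 at 20.4, 21.4 and 32.0. Smad3, a signal transducer, was at 5.60, 7.69 and 3.40 FPKM, and Foxh1, its DNA-binding partner, at 3.91, 3.93 and 3.68. The list had 2 higher and 0 lower genes among 19 (1.12% and 0.741% of all genes were), with a median of -0.07.

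Spp1, which encodes the integrin-binding phosphoprotein osteopontin, was the most abundant of the 12 largest differences above ES. It lies on the plus strand of chromosome 5 (104435118 to 104441050) and was at 107.6 and 111 FPKM in ES cells and 730 in the EB library, a difference of 2.73 (SE 0.05, limma adjusted p = 0.0929 over all gene types and 0.00505 over protein-coding genes). Among its receptors the integrin subunit gene Itgb3 was at 0.538, 0.548 and 3.64 FPKM, Itgb5 at 5.85, 6.68 and 10.4, and Itgav at 15.0, 15.6 and 14.6. Cd44, which encodes a hyaluronan receptor that also binds osteopontin, was lower at 23.3, 23.9 and 6.06 FPKM. Osteopontin is known from bone cells and macrophages, most of whose markers were under 1 FPKM in all 3 libraries. The part of these cells in the Spp1 difference was not tested. Of 9 bone markers Alpl, a phosphatase also found in ES cells, was at 9.96, 10.1 and 16.1 FPKM and Runx2, a bone transcription factor, at 0.968, 1.21 and 0.576. The bone matrix genes Bglap and Ibsp were listed at 0 in all 3 libraries and Sp7 was at 0.406 FPKM in the EB library. Of 14 macrophage genes only Cd68, a lysosomal protein, reached 1 FPKM, at 14.03, 14.15 and 17.81, and Adgre1, Fcgr1, C1qa, C1qb, C1qc, Tyrobp and Aif1 were at 0 in the EB library. The summed level of the 14 was 14.6 and 15.3 FPKM in ES cells and 18.5 in the EB library, most of it from Cd68.

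Other secreted products were higher as well. Cck, the gene of the peptide hormone cholecystokinin, was at 0.378, 0.512 and 17.2 FPKM, and Igfbp5, a binding protein of insulin-like growth factors, at 0.615, 0.697 and 15.6. Grem1, a secreted BMP antagonist, was at 6.88, 7.27 and 35.8 FPKM. The chemokine genes Ccl7 and Ccl2 were at 4.85, 4.95 and 24.8 FPKM and at 5.16, 6.53 and 23.4 FPKM. They adjoin Ccl8 on chromosome 11, whose listed value was 0 in ES 1 and ES 2 and 1.65 FPKM in the EB library, at least 7.45-fold above the level of 3 fragments per library. Cxcl12, a chemokine of stromal cells, went the other way, at 4.03, 4.35 and 0.882 FPKM. Outside the naming rule and chosen after their values were seen, Trh, the precursor of thyrotropin-releasing hormone, was at 66.8, 63.6 and 231 FPKM, the hedgehog receptor gene Ptch1 at 28.4, 29.8 and 74.6, and Ifitm1 at 121, 116 and 294.

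**Figure D3:**
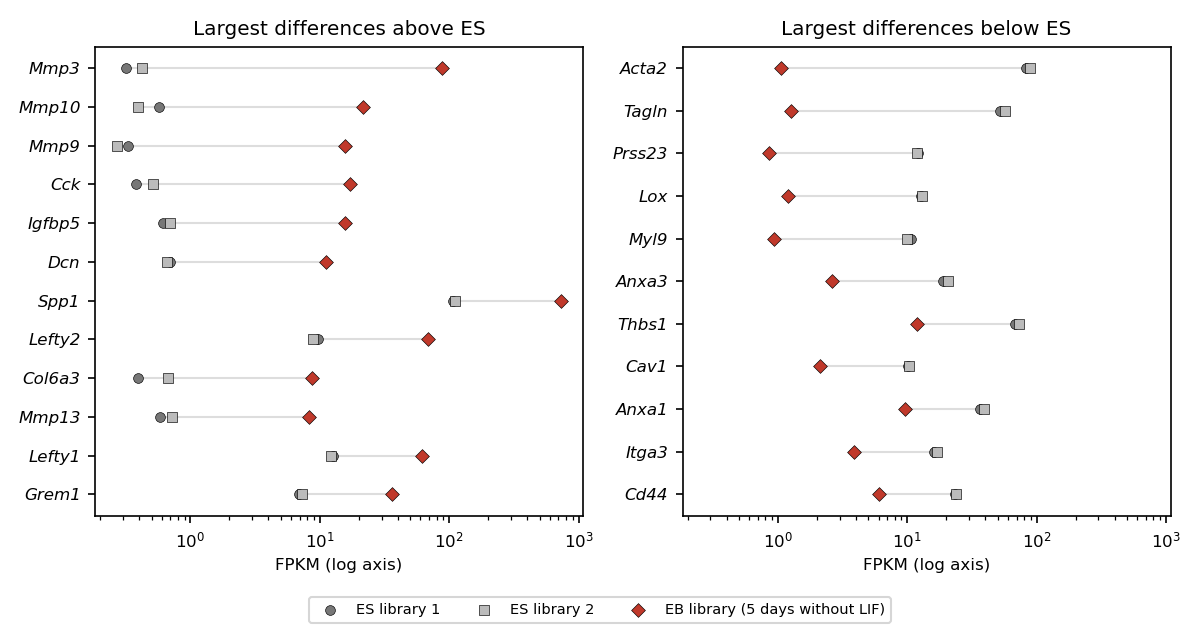
FPKM (log axis) in ES library 1 (circles), ES library 2 (squares) and the EB library (diamonds) for the 12 largest differences above ES (left) and the 11 largest reported below (right), among genes with at least 5 FPKM where they are higher, predicted names left out. The ES libraries lie nearer to each other than to the EB library for every gene shown, and Acta2 has the longest line on the right.

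The genes lower in the EB library were led by those of the contractile actin cytoskeleton. Acta2, smooth muscle alpha-actin, was at 82.8 and 88.7 FPKM in ES cells and 1.06 in the EB library, 81.1-fold lower (difference -5.40, SE 0.07). The adjusted p was 0.068 by limma over all gene types and 0.00244 over protein-coding genes. Tagln (transgelin, which cross-links actin) was at 52.4, 56.6 and 1.26 FPKM, and Myl9, a regulatory light chain of myosin, at 10.8, 9.98 and 0.925. For these genes the ES libraries lay together and the EB library lay more than 4-fold under them. Actg2, the enteric smooth muscle actin, was at 1.96, 3.16 and 0.0333 FPKM, the last of which is under the 0.0729 FPKM that 3 fragments give. Tagln overlaps Pcsk7 on the opposite strand, which leaves its level less certain.

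Broadly expressed members of the same machinery differed less and mostly in the same direction. The tropomyosin gene Tpm1 was at 111.9, 109.6 and 46.8 FPKM and the calponin gene Cnn2 at 27.8, 26.9 and 11.1, both at least 2-fold lower. The filamin gene Flna was at 160.7, 169.7 and 113.6 FPKM and Srf, the transcription factor of many of these genes, at 9.21, 9.45 and 6.66. Markers of mature smooth muscle were scarce throughout, with Myh11 at 0.171, 0.17 and 0.126 FPKM. In this list 6 of 25 members were lower and 0 higher, beside 0.741% and 1.12% of all genes. Of the 25 members 24 lay below both ES libraries (49.2% of all genes did), and the median was -0.54 against -0.04 over all genes. Synpo2 was the exception, at 0.64, 0.878 and 2.01 FPKM.

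SRF binds the CArG box, a motif of many actomyosin promoters. An exact CArG box was found on either strand in 5 of the 62 lower genes with a RefSeq promoter entry (8.06%). It was found in 1 of 92 higher genes (1.09%) and in 1.54% of the 9345 genes of the comparison with an entry. Of all 32851 promoters 1.63% held it. The 5 lower genes were Acta1, Cnn2, Filip1l, Igf2 and Myl9. The promoters of Myl9 and Cnn2 are shown as the 2-fold lower members of the actomyosin list with an exact box, which is in capitals. The promoters of members within 2-fold were not looked at gene by gene. They lie on the plus strand at chr2:156775214-156775513 and chr10:79988350-79988649, and the box begins 161 and 56 bases before the start. The Acta2 and Tpm1 windows held no exact box, and Tagln and Actg2 were not in the table.
Myl9: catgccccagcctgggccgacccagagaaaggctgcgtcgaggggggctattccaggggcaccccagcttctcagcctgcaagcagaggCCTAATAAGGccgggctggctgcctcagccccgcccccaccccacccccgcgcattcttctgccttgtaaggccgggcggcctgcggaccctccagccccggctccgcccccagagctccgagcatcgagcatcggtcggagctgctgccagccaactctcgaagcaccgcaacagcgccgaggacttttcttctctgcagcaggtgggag
Cnn2: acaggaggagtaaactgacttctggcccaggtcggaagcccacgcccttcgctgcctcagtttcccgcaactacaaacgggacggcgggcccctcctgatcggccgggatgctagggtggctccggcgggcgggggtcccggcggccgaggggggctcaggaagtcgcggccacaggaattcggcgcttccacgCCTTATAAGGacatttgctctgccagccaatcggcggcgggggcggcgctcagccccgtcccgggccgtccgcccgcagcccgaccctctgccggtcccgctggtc

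Some genes of adhesion to the matrix were also lower. Itga3, the alpha-3 integrin subunit of laminin receptors, was at 16.2, 16.9 and 3.84 FPKM. Cav1, the coat protein of caveolae, was at 10.2, 10.3 and 2.13 FPKM, and zyxin (Zyx), a focal adhesion protein, at 15.1, 15.2 and 6.95. By contrast Itga6, another laminin receptor subunit, was at 58.4, 61.6 and 61.1 FPKM. The list had 4 lower genes and 1 higher among 19 (0.741% and 1.12% of all genes were), with a median of -0.26.

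The annexins, which bind membranes when calcium rises, and their S100 partners were split. Anxa3 was at 19.0, 20.7 and 2.60 FPKM, Anxa1 at 36.7, 39.5 and 9.59, and Anxa2 at 30.8, 33.4 and 9.06. The giant scaffold gene Ahnak, whose product binds annexin A2, was at 33.5, 36.2 and 10.5 FPKM, and S100a6 at 248.7, 252 and 86.5. Anxa4, Anxa5, Anxa7 and Anxa11 lay near ES cells, with Anxa7 at 17.1, 18.1 and 17.9 FPKM. Of 16 members 5 were lower and 0 higher (0.741% and 1.12% of all genes were), with a median of -0.41. S100a6, Ifitm1, Vim, Spp1, Tpm1 and Peg10 were the 6 genes past 2-fold among the 814 at 100 FPKM or more in ES cells.

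YAP acts through the TEAD transcription factors at the end of the Hippo pathway, which responds to cell tension and crowding. Of 20 of their targets 6 were lower and 0 higher, beside 0.741% and 1.12% of all genes. Of the 20 targets 15 lay below both ES libraries (49.2% of all genes did), and the median was -0.61. Thbs1 (thrombospondin 1) was at 68.3, 72.5 and 11.9 FPKM, Ankrd1 at 4.23, 4.10 and 0.0682, and the receptor kinase gene Axl at 23.3, 26.6 and 7.53. F3, the tissue factor that starts coagulation, was at 11.7, 10.5 and 3.09 FPKM. Ccn2 (connective tissue growth factor) was at 51.7, 51.1 and 21.1 FPKM. Other targets lay near ES cells, such as Igfbp3 at 14.8, 15.7 and 17.2 and Asap1 at 18.3, 17.7 and 17.1.

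Matrix genes went both ways. All 3 classical chains of collagen VI, a microfibrillar collagen, were higher: Col6a1 was at 0.764, 0.866 and 7.27 FPKM, Col6a2 at 0.477, 0.658 and 5.44, and Col6a3 at 0.396, 0.675 and 8.68. Dcn, the gene of the proteoglycan decorin, was at 0.695, 0.664 and 11.1 FPKM. Lox, the enzyme that cross-links collagen, was lower at 12.8, 12.9 and 1.20 FPKM; Col12a1 was the other lower gene of the list. Col1a1, the main fibrillar collagen, was at 6.71, 7.29 and 4.47 FPKM, and fibronectin (Fn1) at 240.1, 239.6 and 283. In the matrix list, which does not hold Col6a3, 4 of 31 members were higher and 2 lower, with a median of 0.04. Over all genes 1.12% were higher and 0.741% lower. Col6a1, Col6a2, Col6a3 and Dcn passed the filter only through the EB library, so the count of higher genes describes them and tests nothing.

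Fibroblasts were in the ES cultures as feeder cells, and many genes of the last paragraphs are also expressed by them. Of 23 fibroblast markers 7 were higher in the EB library, beside 1.12% of all genes. Vim (vimentin) was the 1 lower marker, at 101, 102 and 41.2 FPKM, beside 0.741% of all genes. Among the higher markers Dcn, Col6a1, Col6a2 and Dpt passed the filter only through the EB library, so the count describes them and tests nothing. The median was 0.34, and 4 of the 7 higher markers are collagen VI, collagen III and decorin genes that the matrix list also holds. The summed level of the 26 markers in the table was 181 and 182 FPKM in ES cells and 157 in the EB library. Without Vim the other 25 summed to 80.1 and 80.4 FPKM in ES cells and 115.8 in the EB library. In the ES libraries Fap, Tcf21 and Dpt were at 0, and Dpt, a matrix protein of dermis, was at 1.19 FPKM in the EB library. Prrx1, a mesenchymal homeobox gene, was at 6.65, 7.66 and 6.66 FPKM and Postn at 2.39, 2.80 and 2.66. The part of feeder cells in the differences above was not tested.

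**Figure D4:**
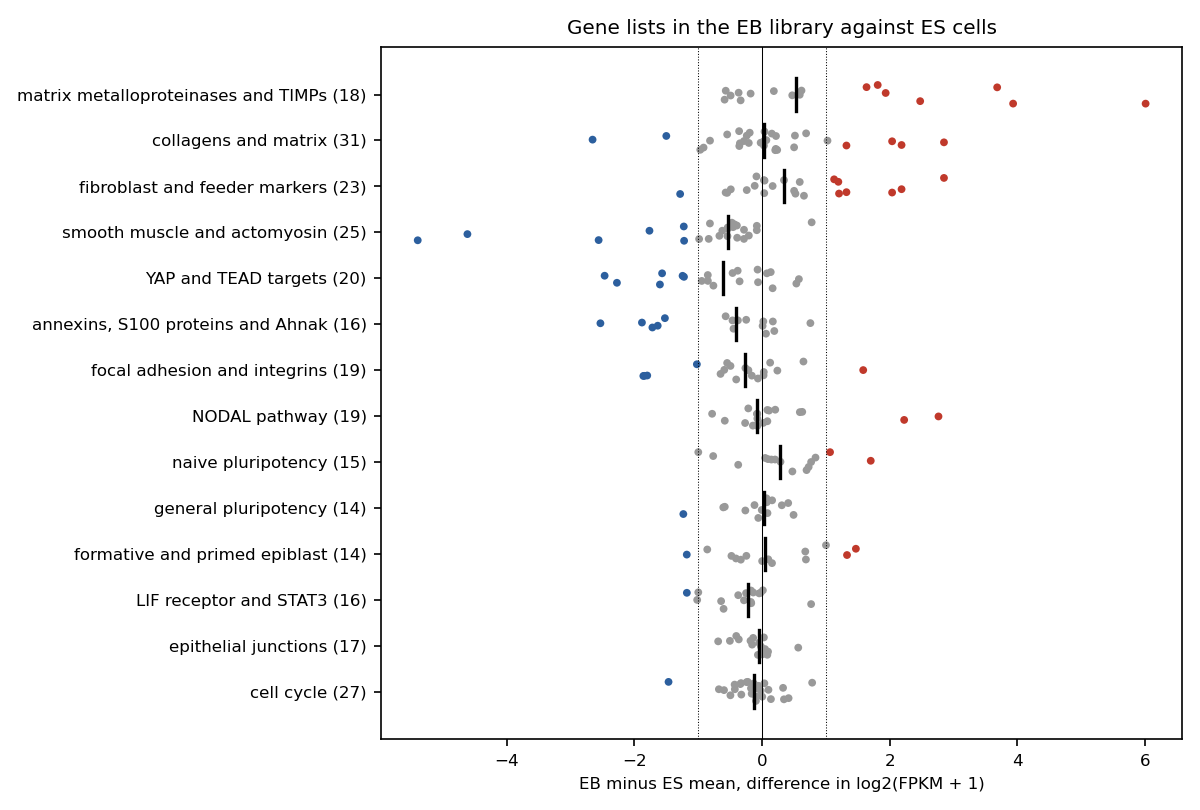
Each point is a gene, placed at its difference between the EB library and the ES mean in log2(FPKM + 1), by gene list, with the number of members in brackets. Red and blue mark genes at least 2-fold above or below both ES libraries, black bars the list medians, and dotted lines a 2-fold difference, with a gene that is not reported left undrawn; the actomyosin, YAP-TEAD and annexin lists lie mostly to the left, with medians of -0.54, -0.61 and -0.41.

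Differentiation markers were compared with the label. Pou5f1, Sox2 and Nanog make up the core of the pluripotency network. Sox2 was at 134, 126 and 173 FPKM and Nanog at 113, 108 and 156, both above the ES libraries, and Pou5f1 was at 489, 472 and 461. Of 14 general pluripotency genes only Lin28a, an RNA-binding protein that blocks let-7 processing, passed 2-fold, at 76.2, 77.3 and 32.1 FPKM. Over all genes 0.741% were lower. The naive factors were mostly above ES cells. Tcl1, a coactivator of the AKT kinase, was at 3.56, 4.22 and 14.9 FPKM and the T-box factor gene Tbx3 at 15.8, 15.8 and 34.2. These were the 2 higher genes of 15, beside 1.12% of all genes. Nr5a2, an orphan nuclear receptor gene, was at 37.6, 40.4 and 70.5 FPKM, Tfcp2l1 at 28.5, 30.8 and 51.3, and Gbx2, a homeobox target of STAT3, at 34.7, 28.9 and 15.4. The list had 12 of 15 members above both ES libraries, where 37.1% of all genes were, and 3 below both, with a median of 0.29.

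The LIF pathway genes leaned the other way. Pim1, a kinase gene induced by STAT3, was lower at 23.4, 22.7 and 9.65 FPKM. Socs3, the feedback inhibitor of the LIF receptor, was at 61.3, 59.7 and 38.4 FPKM, and Bcl3 at 14.2, 15.8 and 6.89. Of 16 members 13 lay below both ES libraries, where 49.2% of all genes did, and the median was -0.21. Only Pim1 passed 2-fold, where 0.741% of all genes were lower. Leaving out either ES library brought this count from 1 to 2.

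Factors of the formative and primed epiblast, the state after the naive one, were mixed. Otx2, a homeobox regulator of that state, was at 9.22, 9.01 and 24.5 FPKM, and Zic2, a zinc finger factor, at 6.35, 5.56 and 18.3. Otx2 overlaps Otx2os1 on the opposite strand. Fgf5, the usual marker of the primed epiblast, was at 0.413, 0.846 and 1.59 FPKM, Dnmt3b at 93.9, 99.7 and 69.1, and the ETS factor gene Etv4 lower at 68.4, 73.3 and 30.7. In this list 2 of 14 members were higher and 1 lower (1.12% and 0.741% of all genes were), with a median of 0.05.

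Germ-layer regulators were at low levels in all 3 libraries. Of 11 streak and mesendoderm genes 3 reached 1 FPKM in any library and 0 passed 2-fold. Fgf8, a growth factor gene of the streak, was at 0.353, 0.124 and 1.10 FPKM. T (brachyury) was at 1.00, 1.14 and 0.127 FPKM, Eomes at 1.31, 1.32 and 1.26, and Mixl1 at 0.157, 0.202 and 0.17. No gene of the mesoderm list (6 members), the definitive endoderm list (5) or the extraembryonic endoderm list (9) passed 2-fold. Nor did any of the cardiac list (2) or the blood and endothelium list (5). Over all genes 1.12% were higher and 0.741% lower, which leaves few calls in lists of this size. Of the 6 mesoderm members 4 lay above both ES libraries (37.1% of all genes did) and 2 below both, with a median of 0.28. With a pseudocount of 0.1 in place of 1, Fgf8, Snai2 (0.523, 0.635 and 1.40 FPKM) and Cxcr4 (0.906, 0.661 and 1.98) would pass as higher and T and Fst (9.38, 8.71 and 4.30) as lower. Gata6, an endoderm factor, was at 0.498, 0.376 and 0.213 FPKM and Sox17 at 0.611, 0.341 and 0.348. The neuroectoderm list had 1 lower gene and 0 higher among 5, the intermediate filament gene Nes at 7.11, 6.92 and 2.11 FPKM. Sox1, a neural factor, was at 0.392, 0.296 and 0.107 FPKM. In these lists most pluripotency factors lay near or above their ES level. Most streak, mesoderm and neuroectoderm genes were under 1 FPKM in all 3 libraries. These levels go against the label, so the library is named here by its label only. The absence of higher germ-layer genes by the 2-fold rule is near the share over all genes and adds nothing to this.

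**Figure D5:**
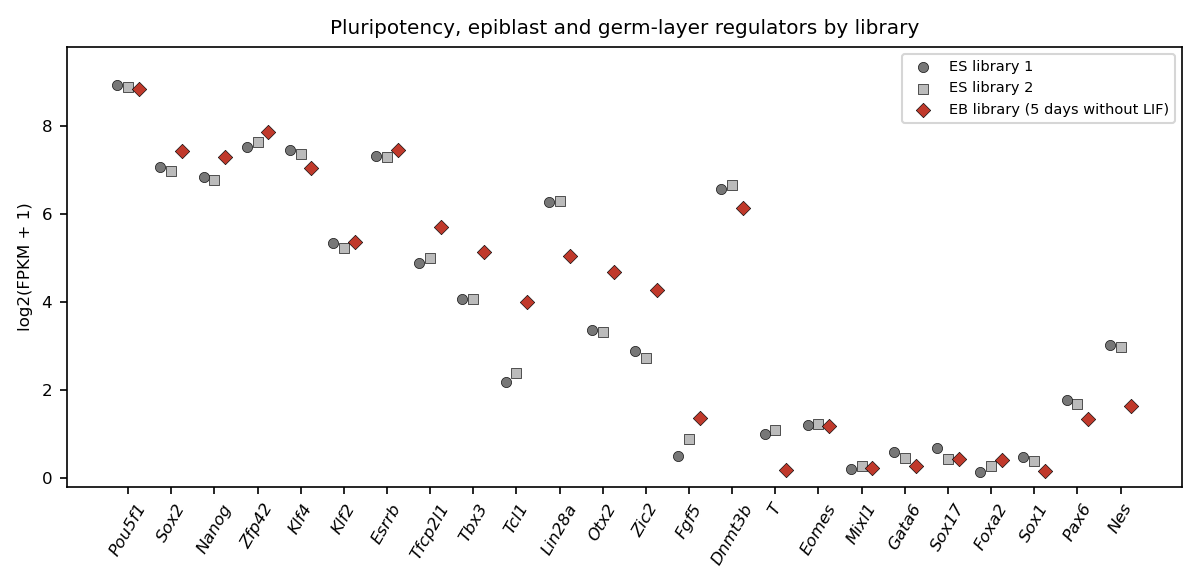
Levels as log2(FPKM + 1) in ES library 1 (circles), ES library 2 (squares) and the EB library (diamonds) for regulators of pluripotency (left), of the formative epiblast (middle) and of the germ layers (right). The pluripotency factors lie high in all 3 libraries, Tcl1, Otx2 and Zic2 are higher in the EB library, and T, Eomes, Mixl1, Gata6, Sox17, Foxa2 and Sox1 lie near the bottom of the axis.

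A few signalling readouts passed 2-fold. Among WNT targets Sp5 was lower at 2.88, 2.93 and 0.673 FPKM, the 1 such gene of 8, and the list's median was -0.49. Of 12 Notch genes the ligand gene Dll1 (6.08, 6.54 and 2.18 FPKM) and the target gene Hes1 (30.0, 26.1 and 11.7) were lower. Of 19 FGF and ERK genes Ier3 (5.21, 5.01 and 16.1 FPKM) and Fgf15 (3.86, 3.88 and 9.24) were higher and Etv4 was lower. The imprinted list had 4 lower genes of 20: Dlk1 at 6.63, 5.91 and 1.18 FPKM, the growth factor gene Igf2 at 9.23, 9.01 and 2.60, the cell cycle inhibitor gene Cdkn1c at 36.7, 37.6 and 12.8, and Peg10 at 125, 127 and 57.1. Dcn, at 0.695, 0.664 and 11.1 FPKM, was the 1 higher gene of this list. Tfap2c, a trophoblast and germ-cell factor, was at 3.73, 2.88 and 11.1 FPKM. Beside shares of 1.12% higher and 0.741% lower over all genes, which leave few calls in a list of this size, 0 of 17 p53 targets, 0 of 17 epithelial junction genes, 0 of 26 glycolysis and hypoxia genes and 0 of 9 DNA methylation enzymes passed 2-fold. Of 27 cell cycle genes only Cdkn1c did. Within 2-fold some of these lists leaned 1 way. Of the p53 targets 14 lay above both ES libraries (37.1% of all genes did), with a median of 0.17. Of the DNA methylation enzymes 8 lay below both (49.2% of all genes did), with a median of -0.32, as did 17 cell cycle genes, with a median of -0.13. The medians were -0.05 for the epithelial junction genes and 0.08 for the glycolysis and hypoxia genes. Leaving out ES 2 brought the glycolysis and hypoxia count from 0 to 2 higher.

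At the edge of the 2-fold rule, Tnks1bp1 (7.84, 8.43 and 17.9 FPKM) and Xaf1 (2.42, 2.52 and 6.07) were just inside it on the higher side, and Krt42 (2.45, 1.31 and 5.90) and Ptges (2.07, 2.51 and 5.99) just outside. On the lower side Hspb8 (9.95, 9.90 and 4.40 FPKM) and Zyx were just inside, and Slc16a6 (6.17, 5.45 and 2.28) and Gm10800 (39.1, 76.8 and 19.2) just outside.

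The series also holds 1 library of the same cells after 2 days without LIF, which shares the ES controls, so values are only set side by side. Acta2 was at 234 FPKM in it, Tagln at 152 and Thbs1 at 248, each above ES cells, where the EB library lay below them. Mmp3 was at 9.50 FPKM, Mmp10 at 11.8 and Cck at 8.56, between the ES and EB levels. Lefty1 was at 8.34 FPKM and Spp1 at 170.5, and Igfbp5 was at 21.9.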

How the data were processed

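The values are the FPKM that the authors deposited, 1 per gene and library, and no read counts were used. The submitters' processing notes name mm10 as the build, and Cufflinks, STAR and Trimmomatic 0.36 as tools. Their options, the annotation and the use of strand are not given in the sources consulted. FPKM is relative to the library total, so a library with more of a few RNAs shows less of the rest. The top 10 genes held 15.5%, 9.8% and 17.4% of the FPKM sum in ES 1, ES 2 and EB, and 44.7% in the library after 2 days without LIF, which was also the shallowest at 18.1 M fragments. The deposited values were used without rescaling, as size factors (median of ratios) came to 1.003, 1.014 and 0.997.

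Gene types and positions came from GENCODE mouse release 21 on mm10, which matched 47219 of 47633 identifiers without their version (82.8% of these with the same version). Promoters came from RefSeq on GRCm38.p6. Depth was estimated by taking the mode of the product of FPKM and exon length among low values as a single fragment, over genes of at least 3000 nt with 1 transcript, in log2 bins of 0.05. Differences were computed on log2(FPKM + 1), which understates those of low genes. Genes were called by size at 2-fold from both ES libraries, and by limma 3.58.1 in R 4.3.3 (trend, Benjamini-Hochberg adjusted p under 0.05, absolute difference of at least 1) over genes of every type at 1 FPKM or more. Other work used Python 3.11.15. The steps were tested on simulated data. Alternatives were the pseudocount, the filter, scaling, fold, gene set, model settings and each ES library left out.

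The comparison, its 39 gene lists and the markers were chosen with earlier results of these data known. The naming rule took the 12 largest differences each way with at least 5 FPKM in whichever was higher, predicted names left out, up to 4 members per list past 2-fold (or the 2 most abundant), and the genes nearest the threshold. A gene that this rule takes is not reported here. Further list members are given as examples of their list. Several list members are in more than 1 list.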

Additional observations from a re-analysis of the deposited data

Results flagged for a closer look

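Each gene given here differed 2-fold or more from ES 1 and ES 2 in 1 direction in the EB library and 2-fold or more in the other direction in the library after 2 days without LIF. The difference between the derived libraries was not tested: each is a lone library, the times differ and the ES controls are shared. The 2-day library stood apart, with 44.7% of its FPKM sum in 10 genes against 9.8% to 17.4% in the others, and its part in these values was not tested. Acta2 differed from ES cells by -5.40 on the log2(FPKM + 1) scale in the EB library and by 1.44 after 2 days, and Tagln by -4.62 and 1.46. Prss23 differed by -2.81 and 1.19, and Lox by -2.66 and 1.59. Myl9 was at -2.56 and 1.11, Thbs1 at -2.47 and 1.80, Ankrd1 at -2.27 and 1.04, Cd44 at -1.80 and 1.67, and F3 at -1.57 and 1.46. Tfap2c alone among them was higher in the EB library, at 1.497, and lower after 2 days, at -1.22. Tagln, Prss23, Lox, Thbs1 and Cd44 overlap a gene on the opposite strand, so their levels are less certain. Groups of 4 or more libraries did not exist, so no library could be examined as an outlier.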

How the results depend on the processing

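By the rule of size 221 protein-coding genes differed 2-fold or more. It was 517 with a pseudocount of 0.1 and 60 with one of 5 (30 higher and 30 lower), 137 among genes at 5 FPKM or more, 134 among strand-clear genes (those with 1000 nt of exon or more that overlap no gene of the other strand; 88 higher and 46 lower), 864 at 1.5-fold and 29 at 4-fold. With a single ES library as the control it ranged from 276 to 334, the latter without ES 1. Median-of-ratios scaling gave 227 (141 higher and 86 lower), and no filter gave 221. The stricter settings called subsets of the 221. limma called 0 genes over all gene types. For its other settings only calls of protein-coding genes were counted. By this count limma also called 0 with a pseudocount of 0.1, other scaling, other filters, all 4 libraries or no trend. It called 1 with a pseudocount of 5, 5 with robust moderation, 148 in the strand-clear fit and 247 over protein-coding genes alone, of which 219 were also called by size; the cause was not tested. Among the 88 named genes no difference of a gene past 2-fold changed sign under any setting. This was fixed in advance and tests nothing, as such a gene lies beyond both ES libraries and the size factors were near 1. With a pseudocount of 0.1, 68 of the 88 differences moved by more than the standard deviation of the ES pair, and 76 with one of 5. With a pseudocount of 5 the matrix metalloproteinase list had 4 higher genes in place of 7 and the YAP and TEAD list 3 lower in place of 6. With a pseudocount of 0.1 the streak list had 1 higher and 1 lower gene, the mesoderm and definitive endoderm lists 1 higher each and the extraembryonic endoderm and trophoblast lists 1 lower each, all in place of 0. The same setting gave 1 higher gene in the actomyosin list in place of 0. In all, 12 of the 78 list counts moved by over 1.5 times or from 0 with a pseudocount of 0.1 and 20 with one of 5. The depth limits genes near 0.1 FPKM and below. Leaving out an ES library leaves limma with 0 residual degrees of freedom, so it was not run that way. No paired analysis was possible because the EB library carries no replicate number.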
